A study of Homo sapiens and Mus musculus with 92 samples.

Results

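The immediate early AP-1 and EGR genes are the 10 genes FOS, FOSB, FOSL1, FOSL2, JUN, JUNB, JUND, EGR1, ATF3 and IER2. They were chosen by name, as the entries of both gene count tables that carry these symbols, and all 10 were found among the 28103 genes listed in each table. RNA-seq was performed in HEL cells, an established human erythroleukemic cell line without a rearranged MLL gene, to determine how gene expression changes after loss of MLL1 or of AF9. In the MLL1 experiment 3 libraries of control cells (genotype WT in the labels) were compared with 3 libraries of MLL1 KD cells, and in the AF9 experiment 2 libraries of control cells (also WT) were compared with 2 libraries of AF9 KD cells. Control cells of both experiments are HEL cells, and the study's methods name a control shRNA and puromycin selection after lentiviral transduction. Each knockdown rests on 1 hairpin in the RNA-seq, so an effect of the target and an effect of the hairpin cannot be told apart. Nothing in the labels says that the replicates of a group are separate cultures, and the p values therefore measure only the spread between these libraries, which may be technical.

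AP-1 is a dimer of basic leucine zipper proteins. FOS, FOSB, FOSL1 (also called FRA1) and FOSL2 (FRA2) must pair with a JUN protein to bind DNA, while JUN, JUNB and JUND can also pair with each other. ATF3 belongs to the same superfamily and often acts as a repressor, EGR1 is a zinc finger transcription factor, and IER2 is a small nuclear protein. Many genes of this group, though not all to the same degree, are induced within minutes of growth factor or stress signals. Such induction needs no new protein synthesis and uses factors that are already bound at the promoters. It depends on the release of RNA polymerase II that is paused close to the start site. MLL1 is a histone H3 lysine 4 methyltransferase, and AF9 is a YEATS domain protein of the super elongation complex, which promotes that release.

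The hairpins that define the KD groups are given by their target sites, since each group is defined by one of them. MLL1 shRNA #1 matches 21 bases in exon 3 of the 36 exons of KMT2A, the gene of MLL1, at chr11:118474149-118474169 (hg38, plus strand), and AF9 shRNA #1 matches 21 bases in exon 5 of the 11 exons of MLLT3, the gene of AF9, at chr9:20414247-20414267 (hg38, minus strand). Both sites are coding sequence.
MLL1 shRNA #1: gcactgttaaacattccactt
AF9 shRNA #1: ttcaaagcctcacaaattaat

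The targeted genes were lower in the libraries labelled as knockdown. KMT2A was at 1321, 1298 and 1256 CPM (counts per 1000000 counts of the library, after scaling by its TMM factor) in control replicates 1, 2 and 3 and at 812, 814 and 834 CPM in the MLL1 KD replicates, which is 63.5% of control. MLLT3 was at 547 and 527 CPM in the controls of the AF9 experiment and at 107 and 92.5 CPM in AF9 KD cells, 18.6% of control. The gene that was not targeted was also somewhat lower in each experiment, by less than 1.5-fold. KMT2A was at 80.2% of control in AF9 KD cells, and MLLT3 was at 82.2% of control in MLL1 KD cells, where its groups overlapped. Libraries held 6966345 to 14232408 counts. All 8 erythroid markers, among them the globin genes HBG1 and HBG2, had counts in every group, of the 4 megakaryocyte markers GP1BB was at 0 in every library, and of the 4 lymphoid markers only CD79A exceeded 4 counts in any library. The summed level of the erythroid markers was 1273 to 1451 CPM in control and 1087 to 1152 CPM in MLL1 KD cells, and 9206 to 9338 CPM in control and 6187 to 7573 CPM in AF9 KD cells. HBG1 and HBG2 were lower in AF9 KD cells, while 5 of the markers had log2 fold changes above 0 and the median over the list was 0.29. Replicate 1 of both groups of the MLL1 experiment stood apart from replicates 2 and 3 in the genes described here, and its values are given separately further on.

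The genes lie on 6 chromosomes (hg38, GENCODE). FOSL2 is at chr2:28392448-28417317 (plus strand), JUN at chr1:58776845-58784048 (minus), FOSL1 at chr11:65892049-65900573 (minus), EGR1 at chr5:138465479-138469303 (plus) and ATF3 at chr1:212565334-212620777 (plus). The canonical transcripts of JUN, JUNB and JUND have 1 exon, those of EGR1 and IER2 have 2 and those of the other 5 have 4.

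Per gene length, JUND had the highest mean of the 10 genes in every group, followed by JUNB in the MLL1 experiment and by IER2 in the AF9 experiment, and FOS was close to absent. In control cells of the MLL1 experiment the mean level was 289.9 ± 99.0 TPM (transcripts per 1000000, that is counts over gene length scaled to that sum, SD, n = 3) for JUND, 183 ± 53.6 TPM for JUNB and 76.9 ± 23.1 TPM for IER2. Below these lay FOSL1 at 41.7 ± 20.6 TPM, EGR1 at 31.9 ± 21 TPM and ATF3 at 11.3 ± 1.72 TPM. The lower end held JUN at 5.67 ± 1.45 TPM, FOSL2 at 5.30 ± 0.53 TPM, FOSB at 1.5 ± 0.28 TPM and FOS at 0.32 ± 0.28 TPM. Among neighbours in this order, the ranges over the 3 libraries overlapped for JUND and JUNB, for IER2 and FOSL1, for FOSL1 and EGR1, for EGR1 and ATF3 and for JUN and FOSL2, and did not overlap elsewhere. FOS is the gene that names the family, yet only 1 to 4 counts were found for it in any library of the MLL1 experiment and 3 to 5 in any library of the AF9 experiment.

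All 10 genes except FOS were lower in the control cells of the AF9 experiment than in those of the MLL1 experiment in mean TPM. JUND was at 57.6 ± 4.87 TPM (SD, n = 2), IER2 at 52.5 ± 2.37 TPM, JUNB at 25.7 ± 8.28 TPM and FOSL1 at 22.2 ± 4.55 TPM in the AF9 experiment. ATF3 was at 7.64 ± 2.996 TPM, EGR1 at 3.47 ± 0.42 TPM and JUN at 1.89 ± 0.24 TPM. FOSL2 at 0.54 ± 0.21 TPM, FOS at 0.52 ± 0.05 TPM and FOSB at 0.42 ± 0.12 TPM were all below 1 TPM, with overlapping ranges. EGR1, whose control libraries held 31.9 TPM on average in one experiment and 3.47 TPM in the other, and FOSL2, with 5.30 and 0.54 TPM, lay furthest apart. The controls of both experiments carry the same label, and the experiments' difference in cells, culture or library preparation cannot be told apart.

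**Figure D1:**
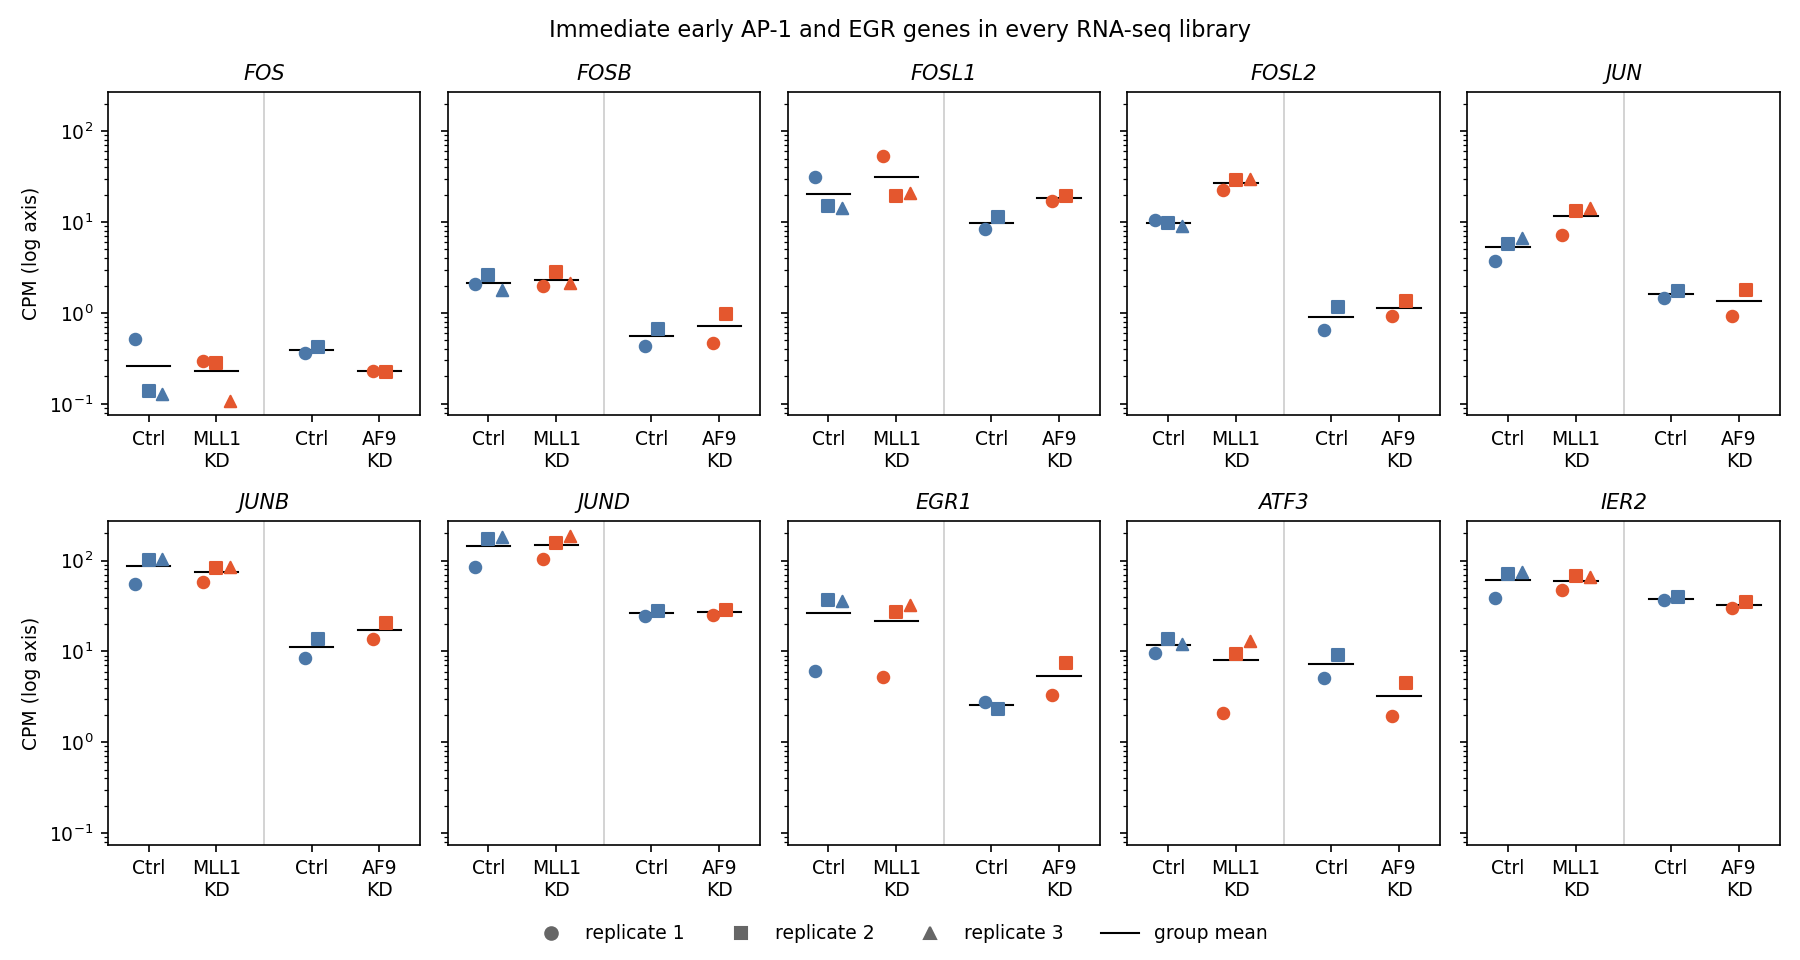
CPM of each of the 10 genes in every RNA-seq library, on a log axis, with control and MLL1 KD libraries on the left of each panel and control and AF9 KD libraries on the right. Symbols give the replicate number and bars the group mean, and FOSL2 and JUN are the genes whose 3 MLL1 KD libraries all lie above the 3 control libraries.

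To determine how the genes responded to loss of MLL1, the MLL1 experiment was analysed over 14394 genes whose mean TPM reached 1, which included 9 of the 10 genes (all but FOS). The fitted ratio of MLL1 KD to control was 2.77 for FOSL2 and 2.16 for JUN, and lay between 0.687 and 1.56 for the other 7 genes. In bulk RNA, a change in the number of cells that express a gene and a change in the RNA per cell cannot be told apart. A gene was called when its fold change was at least 1.5 and its adjusted p value (edgeR's quasi-likelihood test, Benjamini-Hochberg over all genes tested) was under 0.05. By this test none of the 9 genes was called, against 0.0625% of all genes tested. The targeted gene KMT2A was not called by it either (log2 fold change -0.66, adjusted p = 0.072). FOSL2 and JUN had an unadjusted p under 0.05, and DESeq2 on the same genes called FOSL2, against 1.61% of all genes tested. No label pairs the libraries of this experiment, and a pairing by replicate number was read from these same counts and rests on replicate 1. With the replicate number as a block FOSL2 and JUN were called higher and none was called lower. In that fit 2.22% of all genes tested were called higher and 2.51% called lower, KMT2A among the latter (adjusted p = 3.4e-07). An exact permutation test of single values cannot go below p = 0.1 with 3 libraries against 3.

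FOSL2 encodes the FOS family protein FRA2, which lacks the C-terminal transactivation domain of FOS. It was at 10.6, 9.68 and 9.17 CPM in control replicates 1, 2 and 3 and at 22.6, 29.1 and 29.9 CPM in the MLL1 KD replicates. All 3 MLL1 KD libraries lay above all 3 control libraries, which was so in one direction or the other for 17.7% of all genes tested. The log2 fold change was 1.47 (SE 0.19, adjusted p = 0.069), and 1.46 (SE 0.17, adjusted p = 1.4e-05) with the replicate block. Within the same-numbered pairs FOSL2 was 2.13, 3.0 and 3.26 times as high in MLL1 KD as in control cells.

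JUN encodes the c-Jun protein, the main partner of FOS proteins in AP-1. It was at 3.74, 5.67 and 6.62 CPM in control cells and at 7.23, 13.2 and 14.4 CPM in MLL1 KD cells, with no overlap of the groups. The lowest MLL1 KD library, replicate 1, lay close above the highest control library, replicate 3. The log2 fold change was 1.11 (SE 0.34, adjusted p = 0.30), and 1.10 (SE 0.21, adjusted p = 0.0020) with the replicate block. Within the pairs the ratio of MLL1 KD to control was 1.93, 2.32 and 2.17. Each JUN value rests on 29 to 133 counts.

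FOSL1 encodes FRA1, the most abundant FOS family transcript of these cells. It was at 30.99, 15.2 and 14.4 CPM in control cells and at 53.8, 19.4 and 20.9 CPM in MLL1 KD cells. Replicate 1 was the highest library of both groups and the groups overlapped, while within the pairs the ratio was 1.73, 1.28 and 1.45. The log2 fold change was 0.64 (SE 0.47, adjusted p = 0.74), and 0.58 (SE 0.15, adjusted p = 0.011) with the block, a fold change of 1.498 that stays just under the threshold of 1.5. FOSB, which encodes a FOS protein with a short splice form, was at 2.07, 2.63 and 1.78 CPM in control and 1.98, 2.84 and 2.16 CPM in MLL1 KD cells, so its groups overlapped (log2 fold change 0.10, SE 0.36, adjusted p = 0.97).

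JUNB and JUND, the JUN proteins that restrain growth in many cell types, were not called. JUNB was at 55.8, 102 and 105 CPM in control and 58.1, 81.8 and 85.9 CPM in MLL1 KD cells (log2 fold change -0.22, SE 0.26, adjusted p = 0.87). JUND was at 85.3, 170.4 and 181 CPM in control and 104, 156 and 186 CPM in MLL1 KD cells (log2 fold change 0.03, SE 0.31, adjusted p = 0.99). In both genes the spread between replicate 1 and the other replicates was wider than the difference of the group means. With the block the log2 fold change had a 95% confidence interval from -0.39 to 0.02 for JUNB and from -0.12 to 0.25 for JUND. A change of 1.5-fold in either direction lies outside both of these intervals. Without the block the intervals ran from -0.83 to 0.40 for JUNB and from -0.70 to 0.76 for JUND. They hold a 1.5-fold fall of JUNB and a 1.5-fold change of JUND in either direction.

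EGR1, a zinc finger factor and a direct target of serum response factor and its ETS partners, was at 6.07, 37.2 and 35.5 CPM in control cells and at 5.25, 26.9 and 32.4 CPM in MLL1 KD cells. MLL1 KD was the lower library of each pair, with ratios of 0.865, 0.724 and 0.912, but the log2 fold change of -0.29 (SE 0.76, adjusted p = 0.95) did not pass the test, nor did that of -0.28 (SE 0.15, adjusted p = 0.26) with the block. ATF3, a stress-induced repressor of the ATF/CREB family, was at 9.55, 13.7 and 12.1 CPM in control cells and at 2.08, 9.36 and 13.0 CPM in MLL1 KD cells. Its MLL1 KD libraries spread over more than its control libraries, with the highest above 2 of the 3 controls, and the pairs gave ratios of 0.218, 0.683 and 1.07. The log2 fold change was -0.54 (SE 0.55, adjusted p = 0.83), and -0.71 (SE 0.29, adjusted p = 0.12) with the block. IER2 was at 38.9, 71.4 and 74.6 CPM in control and 47.2, 67.6 and 65.6 CPM in MLL1 KD cells, a log2 fold change of -0.04 (SE 0.27, adjusted p = 0.98) with overlapping groups.

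**Figure D2:**
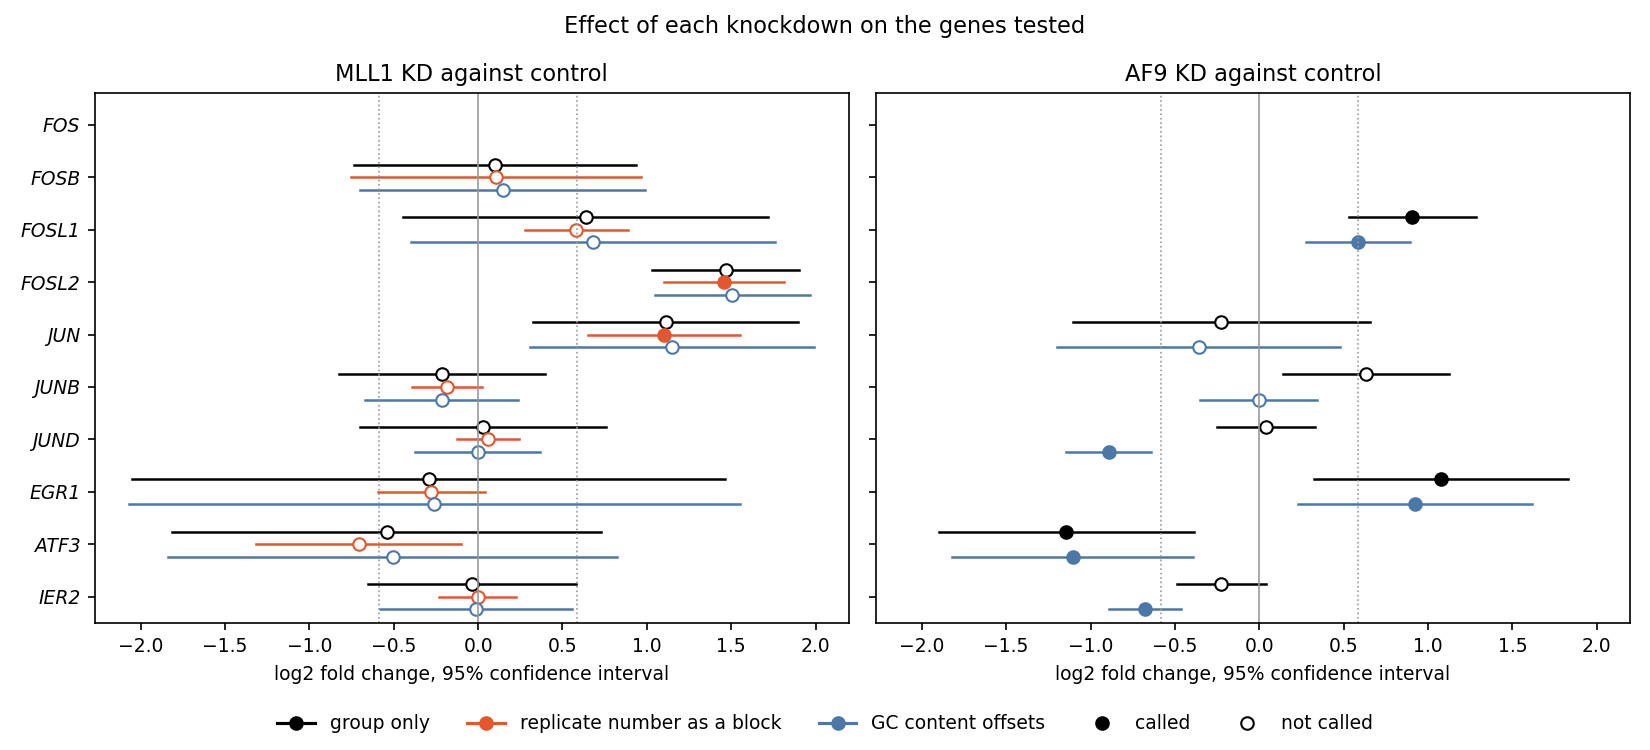
Log2 fold change with its 95% confidence interval for each gene tested, MLL1 KD on the left and AF9 KD on the right. Black symbols are the fit with the group alone, red symbols that with the replicate number as a block (MLL1 only), blue symbols that with offsets for GC content, filled symbols are called genes and dotted lines mark a fold change of 1.5. FOSL2 and JUN lie to the right in MLL1 KD, and in AF9 KD the offsets for GC content move JUNB, JUND and IER2 to the left.

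Replicate 1 of the MLL1 experiment differed from replicates 2 and 3 in the same genes in both groups. On the scale of log2(CPM + 0.5), replicate 1 minus the mean of replicates 2 and 3 was -2.49 for EGR1 in control cells and -2.39 in MLL1 KD cells, and only 0.104% and 0.500% of the 14394 genes tested lay lower. JUN, JUND and EGR1, 3 of the 9 genes, were lower in replicate 1 by at least 1.5-fold in both groups, as were 8.42% of all genes tested. FOSL1 went the other way, with replicate 1 higher by 1.04 in control and by 1.40 in MLL1 KD cells, and 6.57% of all genes tested were higher by at least 1.5-fold in both groups. For ATF3 the difference was -0.41 in control but -2.16 in MLL1 KD cells. Of 14 other immediate early genes tested, 4 (IER5, NR4A2, KLF10 and PPP1R15A) were also lower in replicate 1 by at least 1.5-fold in both groups and none was higher. The shift was shared by the groups, and the standard error of the log2 fold change of EGR1 was 0.76 without the block and 0.15 with it. With replicates 2 and 3 alone, 2 libraries per group, the log2 fold change was 1.64 for FOSL2 (adjusted p = 7.7e-14) and 1.16 for JUN (adjusted p = 3.5e-05). Both were called, as were 4.84% of all genes tested in that fit. The cause of the shift was not tested.

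**Figure D3:**
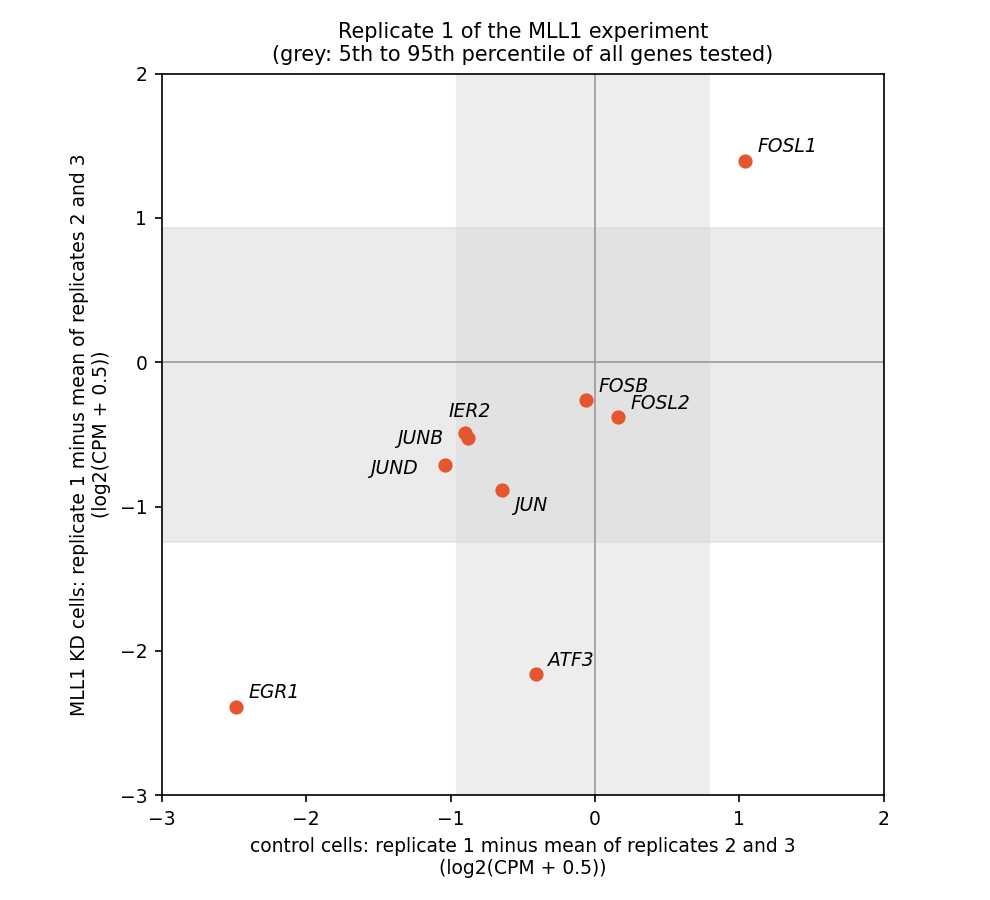
Replicate 1 minus the mean of replicates 2 and 3 for the 9 genes tested, as a difference of log2(CPM + 0.5), in control cells on the x axis and MLL1 KD cells on the y axis. Grey bands cover the middle 90% of all genes tested. EGR1 sits at -2.49 and -2.39, below both bands, and FOSL1 at 1.04 and 1.40, above both.

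To determine how the genes responded to loss of AF9, AF9 KD cells were compared with control cells over 13333 genes, which included 7 of the 10 genes. FOS, FOSB and FOSL2 were below a mean TPM of 1 and did not enter this test. FOSL1 and EGR1 were called higher and ATF3 was called lower, against 8.02% of all genes tested called higher, 5.06% called lower and 13.1% called in either direction. JUN, JUNB, JUND and IER2 did not pass the test. AF9 KD and control libraries did not overlap for FOSL1, EGR1, ATF3 and IER2, but with 2 libraries against 2 this was so for 66.0% of all genes tested, and an exact permutation test of single values cannot go below p = 0.333.

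FOSL1 was at 8.34 and 11.3 CPM in control and at 17.2 and 19.4 CPM in AF9 KD cells, with both AF9 KD libraries above both controls. Its log2 fold change was 0.91 (SE 0.18, adjusted p = 0.0021), a 1.87-fold increase. EGR1 was at 2.76 and 2.35 CPM in control and at 3.33 and 7.48 CPM in AF9 KD cells, a log2 fold change of 1.08 (SE 0.35, adjusted p = 0.034), and DESeq2 on the same genes did not call it (1.08, adjusted p = 0.074). The AF9 KD libraries of EGR1 lay far apart, and without AF9 KD replicate 2 the log2 fold change was 0.38 (adjusted p = 0.41), so the call rests on that library. It was also lost without control replicate 2, at a log2 fold change of 0.97 (adjusted p = 0.055). ATF3 was at 5.15 and 9.23 CPM in control and at 1.93 and 4.49 CPM in AF9 KD cells, a log2 fold change of -1.14 (SE 0.35, adjusted p = 0.026). The highest AF9 KD library of ATF3 came near the lowest control library, and the call was lost without control replicate 2 (log2 fold change -0.68, adjusted p = 0.20) or without AF9 KD replicate 1 (-0.66, adjusted p = 0.11), and with total counts as library sizes (-1.05, adjusted p = 0.058).

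JUNB was at 8.49 and 13.7 CPM in control and at 13.6 and 20.4 CPM in AF9 KD cells, with the lower AF9 KD library just under the higher control. Its log2 fold change of 0.63 (SE 0.23, adjusted p = 0.053) missed the threshold. That value depended on single libraries in both directions. It was 1.00 without control replicate 2 and 0.90 without AF9 KD replicate 1. It was 0.32 without control replicate 1 and 0.31 without AF9 KD replicate 2. JUND was at 24.4 and 27.8 CPM in control and at 24.98 and 28.6 CPM in AF9 KD cells (log2 fold change 0.04, SE 0.13, adjusted p = 0.85), and IER2 was at 36.5 and 39.4 CPM in control and at 30.2 and 34.6 CPM in AF9 KD cells (-0.23, SE 0.12, adjusted p = 0.18). JUN, with only 12 to 24 counts in a library, was at 1.45 and 1.76 CPM in control and at 0.928 and 1.79 CPM in AF9 KD cells (-0.22, SE 0.41, adjusted p = 0.72). The 95% confidence interval for JUN ran from -1.10 to 0.65, so that a change of 1.5-fold in either direction lies within it and was not detectable in these libraries.

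The genes that missed the filter in the AF9 experiment had few counts. FOSL2 had 9 and 14 counts in control and 12 and 18 in AF9 KD cells, FOSB had 6 and 8 in control and 6 and 13 in AF9 KD cells, and FOS had 5 in each control and 3 in each AF9 KD library. The FOSL2 and FOSB groups overlapped. Without the filter on low values none of the 3 was called, with a log2 fold change of 0.32 for FOSL2 (adjusted p = 0.67), 0.38 for FOSB (adjusted p = 0.70) and -0.76 for FOS (adjusted p = 0.62).

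GC content bears on several of these values in the AF9 experiment. Over all genes tested, the log2 fold change in AF9 KD cells had a Spearman rho of 0.480 with the GC content of a gene's exons, and of -0.069 in MLL1 KD cells, given as a description since all genes share the same libraries. The exons of JUND are 69.9% GC, those of JUNB 64.9% and those of IER2 61.6%, where the median of the genes tested is 47.6%. When offsets removed the dependence of each library on GC content, JUND (log2 fold change -0.89, SE 0.12, adjusted p = 1.1e-04) and IER2 (-0.68, SE 0.10, adjusted p = 2.6e-04) were called lower along with ATF3 (-1.11), against 3.70% of all genes tested in that fit. JUNB moved to -0.0029 (SE 0.16, adjusted p = 0.99). FOSL1 (0.59) and EGR1 (0.92) were called higher in that fit too, against 4.55% of all genes tested, with FOSL1 at a fold change of 1.5002, at the edge of the threshold. Whether the trend with GC content is technical was not tested. FOSL1, EGR1 and ATF3 kept their direction with and without the offsets.

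A test of the difference between the AF9 KD effect and the MLL1 KD effect, each against its own controls, was made over 12731 genes, 7 of the 10 genes among them. By the fit without a block none of the 7 was called, against 1.35% of all genes tested, and only JUN had an unadjusted p under 0.05. The AF9 KD effect minus the MLL1 KD effect on JUN was -1.36 on the log2 scale (SE 0.60, adjusted p = 0.28). With the replicate block JUN (-1.38, SE 0.43, adjusted p = 0.028), JUNB (0.79, SE 0.18, adjusted p = 0.0043) and EGR1 (1.27, SE 0.34, adjusted p = 0.012) were called, against 15.3% of all genes tested. The AF9 KD effect was the higher of the pair for JUNB and EGR1 and the lower for JUN. The difference for JUNB was 0.21 (adjusted p = 0.85) with offsets for GC content. FOSL1 had a difference of 0.24 (SE 0.66, adjusted p = 0.90), and the 95% confidence interval from -1.22 to 1.7 does not show that the effects are alike. FOSL2 could not be compared in this way, as it was too low in the AF9 experiment.

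Most of the FOS family transcripts came from FOSL1, and nearly all of those of the JUN family from JUND and JUNB. FOSL1 made up 81.2% to 89.1% of the summed TPM of the 4 FOS family genes in the controls of the MLL1 experiment, and FOSL2 made up 8.02%, 13.6% and 13.8% in control replicates 1, 2 and 3. In MLL1 KD cells FOSL2 made up 9.82%, 27.1% and 26.7%, so that replicates 2 and 3 were above every control and replicate 1 was within the range of the controls. In the AF9 experiment FOSL1 made up 93.5% and 94.0% in control and 96.0% and 97.0% in AF9 KD cells, and FOSL2 at most 2.56% in any library. JUN made up 1.08% to 1.36% of the summed TPM of the 3 JUN family genes in control and 2.28% to 2.81% in MLL1 KD cells. JUND held the largest share of the JUN family in all 10 libraries, from 56.0% to 71.5%, and JUNB from 26.2% to 42.1%. These shares describe the libraries and were not tested.

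**Figure D4:**
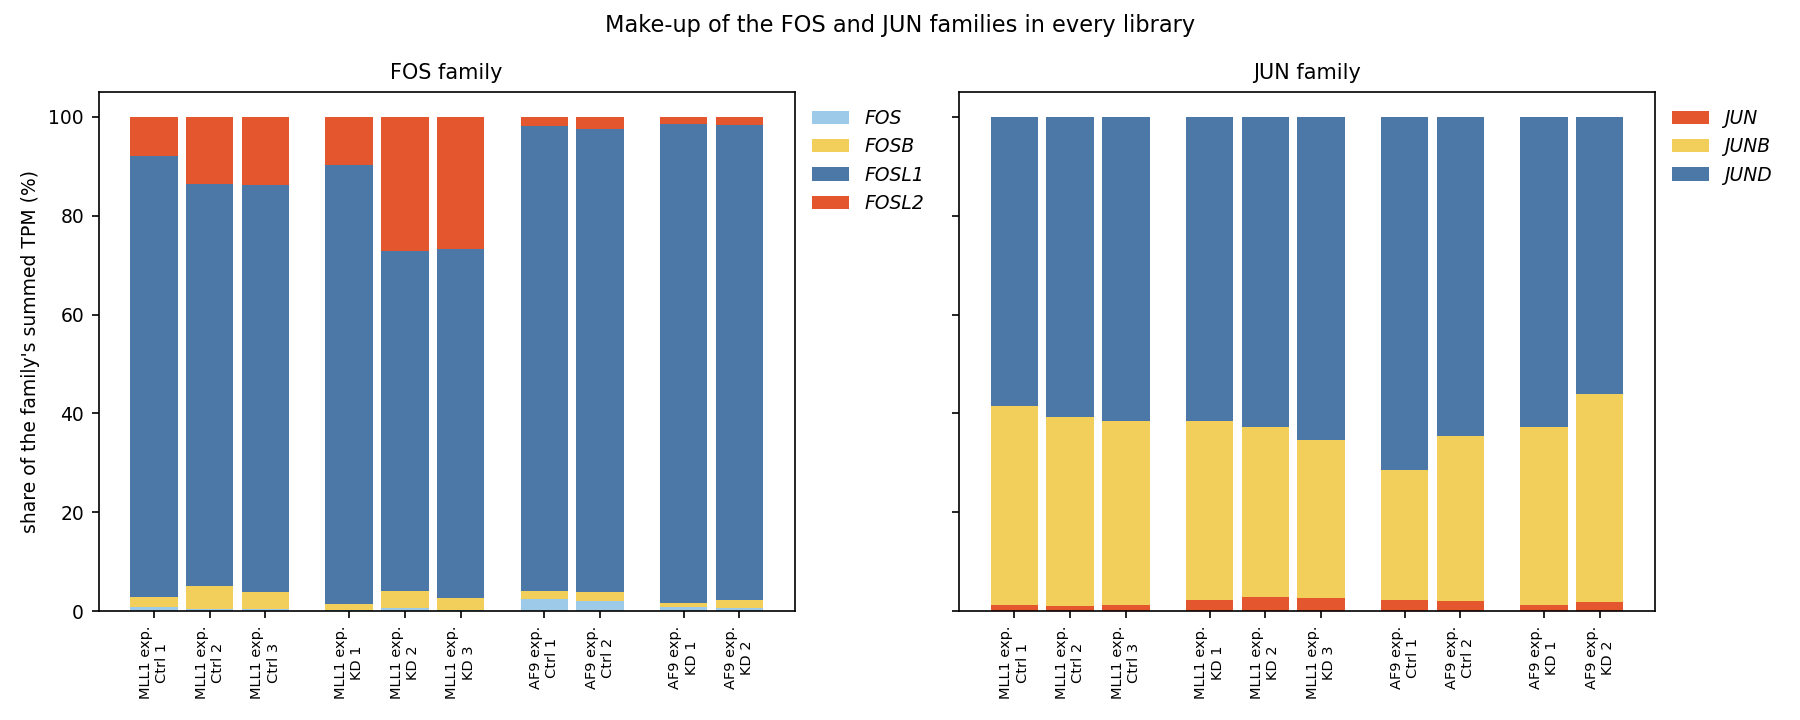
Share of each gene in the summed TPM of the FOS family (left) and the JUN family (right), in percent, 1 bar per library. The FOSL2 share is between 8.02% and 13.8% in the controls and 27.1% and 26.7% in replicates 2 and 3 of MLL1 KD cells. FOSL1 holds most of its family throughout, and JUND and JUNB share theirs.

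The promoters of the genes were compared for sequences that activating factors of these genes are known to bind. RefSeq start sites (GRCh38.p14) were given for 9 of the 10 genes, all but FOSL1, and the 250 bases before the start were searched on both strands. The letters TGACGT, which form 6 of the 8 letters of the cAMP response element (CRE, TGACGTCA), occurred in FOS, FOSB, FOSL2, JUND and EGR1, and in 7.10% of the 35116 promoters in the table. The full CRE, which contains TGACGT on both strands, occurred only in JUND among the 9 genes and in 1.65% of all promoters. The letters TGACATCA, a form of this element in the JUN promoter, occurred in JUN and ATF3 and in 2.37% of all promoters. CArG boxes, the sites of serum response factor, occurred only in EGR1, which holds 2 of them, and in 1.16% of all promoters, and TATAAA occurred in FOS, FOSB, JUNB and ATF3 and in 10.7% of all promoters. ATF3 has 2 RefSeq starts, and its TGACATCA match lies before the first and its TATAAA match before the second. The AP-1 site TGACTCA (4.20% of all promoters) and the EGR site GCGTGGGCG (0.720%) had no match in any of the 9 genes, which says only that these letters are not in this window. The same limit holds for CArG boxes and the other motifs in the genes where they had no match.

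The promoters of JUN and EGR1, called in MLL1 KD cells (with the replicate block) and in AF9 KD cells respectively, are shown from 150 to 11 bases before the start, and a stretch of 30 bases is shown for FOSL2 and ATF3 and, for comparison, for FOS, FOSB and JUND. Capitals mark TGACGT or its complement, TGACATCA, the CArG boxes of EGR1 and, in JUND, the full CRE. Coordinates are chr1:58784058-58784197 (minus strand) for JUN, chr5:138465329-138465468 (plus strand) for EGR1, chr2:28392780-28392809 (plus) for FOSL2, chr1:212565273-212565302 (plus) for ATF3, chr14:75278752-75278781 (plus) for FOS, chr19:45467924-45467953 (plus) for FOSB and chr19:18281805-18281834 (minus) for JUND. The FOSL2 stretch lies before the RefSeq start but after the GENCODE start of the gene, and 1 GENCODE transcript has an exon there.
JUN: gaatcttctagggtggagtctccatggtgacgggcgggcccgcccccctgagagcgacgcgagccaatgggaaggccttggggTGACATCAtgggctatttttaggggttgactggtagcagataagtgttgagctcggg
EGR1: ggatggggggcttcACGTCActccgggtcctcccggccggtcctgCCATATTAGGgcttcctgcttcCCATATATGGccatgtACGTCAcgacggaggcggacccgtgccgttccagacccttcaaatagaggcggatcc
FOSL2: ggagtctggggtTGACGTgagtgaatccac
ATF3: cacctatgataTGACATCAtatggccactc
FOS: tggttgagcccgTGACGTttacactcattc
FOSB: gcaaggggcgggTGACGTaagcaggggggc
JUND: cggccgcccccaTGACGTCAacccacaagg

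The position of these matches was alike in several of the genes. The TGACGT match began 64 bases before the start in FOS, 60 in FOSB and 66 in FOSL2, the match of EGR1 nearest to the start began at 67 and the TGACATCA match of JUN also at 67. FOSL2 and JUN, the genes called in MLL1 KD cells with the replicate block, have their match at nearly the same distance as FOS, FOSB and EGR1. In the MLL1 experiment FOS, with 1 to 4 counts per library, did not enter the test. FOSB, with 14 to 20 counts per library, and EGR1, with 47 to 300, were not called. The match of ATF3 began at 123 and that of JUND nearest to the start at 87. A match is a description of the letters and not a site of binding. The distances are from the RefSeq start, and the GENCODE start of FOSL2 lies before its match. The motifs were chosen after the promoters were seen, and a link between the matches and the calls was not tested.

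**Figure D5:**
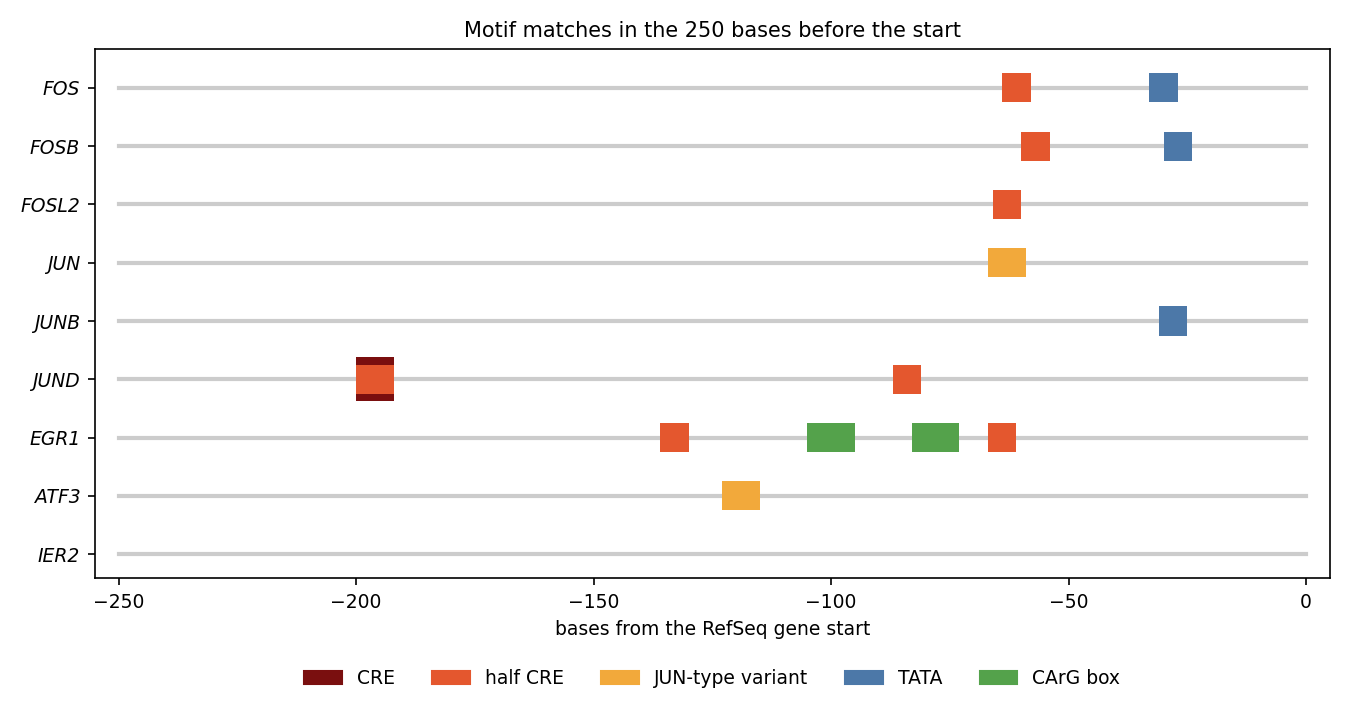
Position of motif matches in the 250 bases before the RefSeq start, in bases from the start, for the 9 genes with a promoter entry (the first of 2 starts for ATF3). Orange and amber blocks mark TGACGT and TGACATCA, dark red the full CRE, blue TATAAA and green the CArG boxes, and the blocks of FOS, FOSB, FOSL2, JUN and EGR1 line up between 55 and 67 bases before the start.

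Other genes of the pathway were taken from fixed lists of genes that are not among the 10. Of 25 other immediate early genes 14 were tested in each experiment. In MLL1 KD cells none of them was called with or without the replicate block, and their median log2 fold change was 0.02, where that of all genes tested was 0.01. In AF9 KD cells 2 of the 14 were called lower and none higher, against 5.06% and 8.02% of all genes tested, with a median of -0.33 where that of all genes was 0.01. These were KLF6, a zinc finger factor (9.77 ± 0.78 CPM in control and 4.45 ± 0.06 CPM in AF9 KD cells, SD, n = 2, log2 fold change -1.13, adjusted p = 0.0014), and RHOB, a small GTPase (12.9 ± 0.11 and 6.87 ± 0.75 CPM, -0.91, adjusted p = 0.0023). The other 12 were not called. PPP1R15A (-0.48, adjusted p = 0.0035), BTG2 (-0.38, 0.022), MCL1 (-0.32, 0.022) and TRIB1 (-0.40, 0.0498) were lower inside the fold change threshold. CCN1, IER5, NR4A1 and NR4A2 had log2 fold changes above 0. With offsets for GC content KLF6 was at -1.03 and RHOB at -1.14. PPP1R15A (-0.69), ZFP36 (-0.67) and CSRNP1 (-0.60) then lay past that threshold downward, and CCN1 (0.60) and NR4A2 (0.68) upward.

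Of 11 other basic leucine zipper partners of AP-1, 9 were tested in each experiment. MAFF, a small MAF protein that lacks a transactivation domain, was called lower in MLL1 KD cells with the replicate block (12.4 ± 2.49 CPM in control and 7.59 ± 4.18 CPM in MLL1 KD cells, SD, n = 3, log2 fold change -0.82, adjusted p = 0.030), and none was called without it. MAFK, a related small MAF protein, was called higher in AF9 KD cells (4.05 ± 0.80 and 7.84 ± 0.83 CPM, log2 fold change 0.96, adjusted p = 0.0074), and its log2 fold change was 0.36 with offsets for GC content.

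All 20 kinases and factors that act upstream of these genes were tested in both experiments. In AF9 KD cells 3 of the 20 were called lower and none higher, against 5.06% and 8.02% of all genes tested. They were ELK3 and ELK4, ETS partners of serum response factor, and MAPK14, the p38 alpha kinase. ELK3 fell by 1.13 on the log2 scale (22.2 ± 2.95 and 10.1 ± 0.78 CPM, adjusted p = 2.8e-04), MAPK14 fell by 0.96 (241 ± 21.3 and 124 ± 4.07 CPM, adjusted p = 3.2e-05) and ELK4 fell by 0.72 (184 ± 2.71 and 112 ± 18.3 CPM, adjusted p = 4.9e-04). With offsets for GC content ELK4 was at -0.47, inside the fold change threshold, and ELK3 at -0.96 and MAPK14 at -0.79. In MLL1 KD cells none was called without the block, and with it ELK3 was called higher (19.4 ± 1.36 and 30.4 ± 5.84 CPM, log2 fold change 0.63, adjusted p = 0.0086).

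Of 12 feedback inhibitors of the MAP kinase pathway, 11 were tested in the MLL1 and 10 in the AF9 experiment. In MLL1 KD cells none was called without the block. With it DUSP6, a phosphatase that inactivates ERK, was called lower (55.0 ± 13.8 and 25.8 ± 10.5 CPM, log2 fold change -1.12, adjusted p = 6.5e-06) and SPRY1, an inhibitor of receptor tyrosine kinase signals, was called higher (13.1 ± 3.06 and 19.9 ± 4.29 CPM, 0.61, adjusted p = 0.019). In AF9 KD cells DUSP2, a nuclear phosphatase of ERK, was called higher (4.15 ± 0.29 and 8.79 ± 1.01 CPM, log2 fold change 1.08, adjusted p = 0.0026) and SPRED1, an inhibitor of RAS signals, was called lower (85.1 ± 6.75 and 51.5 ± 5.18 CPM, -0.72, adjusted p = 4.4e-04). With offsets for GC content DUSP2 was at 0.52 and SPRED1 at -0.43, both inside the fold change threshold. With the replicate block DUSP6 was also called lower in AF9 KD cells (14.6 ± 0.10 and 9.74 ± 3.62 CPM, log2 fold change -0.60, adjusted p = 6.2e-04). That fit called 14.7% of all genes tested, and the replicates of the AF9 experiment share only a number (correlation 0.156). Without the block DUSP6 was at -0.59 (adjusted p = 0.054) and was not called, and with offsets for GC content it was at -0.48. Among the 8 erythroid markers, ALAS2 and HBG2 were called lower in MLL1 KD cells with the block, with a median log2 fold change of -0.32 over the list. Of the 3 megakaryocyte markers tested PF4 was called higher in that fit (1.19, adjusted p = 6.6e-04), while GP9 (-0.34, adjusted p = 0.019) and ITGA2B (-0.27, adjusted p = 0.0018) lay the other way within the fold change threshold. In AF9 KD cells HBG1 (-0.60) and HBG2 (-0.60) were called lower and no erythroid marker was called higher, although TFRC (0.58, adjusted p = 0.0094) and ALAS2 (0.58, adjusted p = 6.0e-04) lay just under the fold change threshold. With offsets for GC content HBG1 was at -0.50 and HBG2 at -0.55, inside that threshold. Their part in the values of the 10 genes was not tested.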

How the data were processed

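RNA-seq libraries of polyA RNA from HEL cells were analysed, 10 of the 92 libraries in the series. The CUT&Tag and PRO-seq libraries were not used here. Per the labels and the study's methods, the authors filtered reads with fastp (version 0.13.1), mapped them to hg38 with HISAT2 (2.1.0, strand-specific) and counted them per gene with featureCounts (1.6.1). The annotation behind the gene symbols is not given in the sources used here. The deposited values are raw counts per gene, with 6966345 to 14232408 counts per library, so no normalization had been applied.

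Counts were analysed with R (4.3.3), edgeR (4.0.16, TMM factors, quasi-likelihood test) and DESeq2 (1.42.0), and sequences and figures with Python (3.11.15). Gene length and GC content came from the merged exons of GENCODE 44, which matched 92.3% of the symbols. A gene was tested in an experiment if its mean TPM reached 1 (or its mean CPM, where no length was found), and called either way if it changed by 1.5-fold or more with an adjusted p under 0.05. The test of the difference used all 10 libraries. Fits were tested on simulated data.

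Deviations from the group means correlated by 0.648, 0.326 and 0.352 between same-numbered control and MLL1 KD libraries. The fit with the replicate number as a block is therefore given beside results it changes. Replicates 2 and 3 correlated as well across numbers (0.369 and 0.360), so the pairing rests on replicate 1. No replicates agreed within sampling noise. Alternatives were DESeq2, other library sizes and filters, other fold change thresholds, offsets for GC content (lowess fits per library, span 0.3), and each library left out. The newer quasi-likelihood method, DESeq2 with the block and the libraries left out of the difference were added after seeing the data.

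The text names the 10 genes, KMT2A and MLLT3, and, from each fixed list, the genes called with or without the block, at most 6 per list. Some genes of the lists that were not called are named as well. The 10 genes and the lists were chosen with earlier results of these data known, and the sequence motifs after the promoters were seen. Promoter sequences are from RefSeq (GRCh38.p14), and hairpin targets were read from the study's list of oligonucleotides.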

Additional observations from a re-analysis of the deposited data

How the results depend on the processing

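A percentage in brackets here is the share of all genes tested that the same fit called. In MLL1 KD cells 0 of the 10 genes were called by edgeR without a block (0.0625%). With the replicate block 2, FOSL2 and JUN, were called (4.73%). FOSL2 alone was called by DESeq2 on the same genes (1.61%) and with the filter applied afterwards (1.51%), and by edgeR without a filter (0.160%). Offsets for GC content and the replicate block together gave 3 (4.52%), FOSL1 being the third. Replicates 2 and 3 alone gave 2 (4.84%), and so did DESeq2 with the block (3.27%). Leaving out 1 library gave 0 to 1 (0% to 0.368%). In AF9 KD cells 3 were called (13.1%), and 5 with offsets for GC content, alone (8.25%) or with the replicate block (8.88%). DESeq2 called 2, on the same genes (10.3%) and with the filter applied afterwards (10.1%), since EGR1 was lost (adjusted p = 0.074 and 0.082). Total counts called 3 (13.9%), with JUNB called and ATF3 lost, a fold change of at least 2 left 2 (3.83%), and no filter gave 4 (10.5%). Leaving out 1 library gave 2 to 3. In the difference of the effects 0 were called (1.35%), 3 with the replicate block (15.3%) and 3 without the first replicates of the MLL1 experiment (16.2%). The count over all genes in the MLL1 experiment was 5 lower and 4 higher without and 361 lower and 320 higher with the block. In the AF9 experiment the replicates share only a number (correlation 0.156), and the block there called 4 of the genes (14.7%), JUNB being the added one.

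Several small effects changed sign. In MLL1 KD cells JUND was at -0.0022 with offsets for GC content and at -0.0376 with replicates 2 and 3 alone, and IER2 was at 0.0179 with offsets and the block and at 0.0048 by DESeq2 with the block. When 1 library was left out, the log2 fold change ranged from -0.24 to 0.23 for JUND, from -0.76 to 0.18 for EGR1, from -0.28 to 0.12 for IER2, from -0.0584 to 0.26 for FOSB and from -0.0043 to 1.09 for FOSL1. In AF9 KD cells JUNB was at -0.0029 and -0.0062 and JUND at -0.89 and -0.89 with offsets for GC content, without and with the block, and leaving out 1 library gave -0.0581 to 0.14 for JUND and -0.77 to 0.17 for JUN. In the difference of the effects JUND was at 0.11 with total counts as library sizes and at 0.0632 without the first replicates, FOSL1 was at -0.11 with offsets, and leaving out 1 library gave -0.21 to 0.27 for JUND, -0.20 to 0.89 for FOSL1 and -0.37 to 0.0402 for IER2. FOSL2 and JUN kept their direction in MLL1 KD cells, and FOSL1, EGR1 and ATF3 in AF9 KD cells, under all alternatives run. Total counts moved the median log2 fold change of all genes in AF9 KD cells from 0.01 to 0.10 and the called genes from 675 lower and 1069 higher to 440 lower and 1415 higher. With offsets for GC content 493 were lower and 607 higher, and any fold change counted gave 1940 lower and 1922 higher. The causes were not tested. FOS, FOSB, JUN and ATF3 in both experiments and FOSL2 and EGR1 in the AF9 experiment had at most 29 counts in at least 1 library. The AF9 experiment had only 2 libraries per group. How far depth or the spread between replicates sets the uncertainty of each gene was not tested.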
